A study of Mus musculus with 14 samples.

Results

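The tumour suppressor gene Trp53, which encodes the p53 protein, and 6 genes that p53 is known to activate (Mdm2, Phlda3, Ccng1, Zmat3, Trp53inp1 and Sesn1) were examined in mouse T-cell acute lymphoblastic leukaemias (T-ALL). They were taken by gene symbol from the deposited table of read counts per gene. All 7 were found there, among 12421 genes in all. The leukaemias belong to the VTL model, in which the oncogene Lmo2 starts the disease and feeding doxycycline (Dox) is the switch applied to it. The promoter that drives Lmo2 is not given in the sources used here. The 14 RNA sequencing libraries came from 8 tumours, which the labels class by their relation to Lmo2. The 3 Lmo2-independent tumours (VTL-33, VTL-44 and VTL-81) were sequenced with and without Dox, as were the 3 evolving tumours (VTL-21, VTL-25 and VTL-153). The 2 Lmo2-dependent tumours (VTL-19 and VTL-24) have libraries without Dox only. Dox was given in food pellets at 600 mg/kg.

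All groups share the rest of the protocol. Thymocytes were first injected into irradiated C57BL/6-Ly5.1;FVB F1 mice, and frozen cells of the resulting leukaemias were then passed to C57BL/6-Rag1-/- recipients, which lack mature lymphocytes of their own. Donor tumour cells positive for both CD45.1 and CD45.2 were sorted from the spleen. Each tumour has 1 library per condition, so the tumour is the replicate, and the libraries of a tumour with and without Dox come from separate samples. The ages of the mice and the Trp53 genotype of the tumours are not given in the sources used here. With 2 or 3 tumours in a class, the spread within a class is that between individual leukaemias.

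p53 is a transcription factor that is held at a low level in unstressed cells, because Mdm2 binds it and marks it for destruction. Damage to DNA and signals from oncogenes release p53 from Mdm2, and p53 then raises the transcription of genes that stop the cell cycle, start apoptosis or limit growth, among them Mdm2 itself, which closes a feedback loop. Since p53 is controlled mainly as a protein, the level of its own transcript is not a measure of its activity. In thymocytes p53 is known for the apoptosis that follows irradiation, and mice without p53 develop thymic lymphomas.

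p53 binds DNA as a tetramer at pairs of 10-base half-sites. The promoters of the genes were searched for the half-site consensus as a description of their sequence. The matches need not be the sites through which p53 is known to act on these genes. A half-site matching the consensus without a mismatch, on either strand, was found in 4 of the 6 promoter windows that RefSeq (GRCm38.p6) gives for the genes, each of 300 bases from 250 before to 50 after a transcription start. Of all 32851 promoters of the same length, 8.36% held one. Zmat3 and Trp53inp1 are named only. Another window of Sesn1 held no match. The half-sites are in capitals below, 5′ to 3′ on the gene's strand. Phlda3 held no match in its window and is shown by the 60 bases before its start, because its transcript differed most between conditions. The match began 173 bases before the start in Sesn1, 186 in Mdm2, 185 in Ccng1 and 75 in Trp53, as in these stretches:
Phlda3, chr1:135766025-135766084 (+): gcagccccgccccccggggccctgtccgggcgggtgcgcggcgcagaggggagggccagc
Sesn1, chr10:41887251-41887290 (+): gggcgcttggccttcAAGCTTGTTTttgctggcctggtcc
Mdm2, chr10:117710920-117710959 (−): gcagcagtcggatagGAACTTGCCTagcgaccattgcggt
Ccng1, chr11:40755447-40755486 (−): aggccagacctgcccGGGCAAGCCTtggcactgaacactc
Trp53, chr11:69580269-69580308 (+): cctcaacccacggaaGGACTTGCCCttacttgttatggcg
None of the 6 windows held a pair of half-sites separated by 0 to 13 bases. Such pairs were found in 24 promoters, or 0.0731% of all. One of them belongs to Cdkn1a, the cell cycle inhibitor that is the best known p53 target, with half-sites that begin 73 and 51 bases before a transcription start:
Cdkn1a, chr17:29090891-29090952 (+): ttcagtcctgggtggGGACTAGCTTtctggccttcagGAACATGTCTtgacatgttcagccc
A match is a description of the sequence. Whether p53 occupied these stretches in the tumours was not measured, and a window without a match says nothing about binding elsewhere in the gene.

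Library totals ranged from 18214415 to 24048281 counts, and levels are given as CPM (each gene's count scaled to a fixed library size, after TMM adjustment of the sizes). Lmo2, the gene targeted by Dox, was at 3.24, 0.198 and 0.405 CPM with Dox in VTL-21, VTL-25 and VTL-153, against 303, 515 and 708 CPM without Dox. In the independent tumours it was at 1.32, 4.09 and 8.46 CPM with Dox in VTL-33, VTL-44 and VTL-81, against 600, 9.28 and 27.2 CPM without Dox. The library labelled independent VTL-33 without Dox therefore carried as much Lmo2 as the evolving tumours. The dependent tumours VTL-19 and VTL-24 had 120 and 142 CPM. T cell markers were at 2883 to 4936 CPM summed over 7 of 7 genes, and none of them was at 0 in any library. Of 7 B cell markers only Cd79b and Blnk were listed, with a sum of 0.421 to 29.0 CPM. The 8 myeloid markers summed to 13.8 to 1763 CPM and the 6 listed erythroid markers to 0.0935 to 145 CPM, and up to 4 of the erythroid markers were at 0. Libraries of some tumours stand apart from their labels. The leading T cell receptor beta segment of VTL-25 was Trbv5 with Dox and Trbv24 without Dox. Whether the libraries labelled VTL-25 hold the same leukaemic clone is therefore not known, and the ratios with over without Dox given for VTL-25 rest on its label. VTL-25 and VTL-153 without Dox were the closest pair of different tumours. In both, Trbv24 led and Trbv13-1 came next, as in VTL-21 without Dox. Whether VTL-25 and VTL-153 without Dox are separate leukaemias is not known. The n = 3 of the evolving tumours without Dox therefore rests on the labels. Only 3 genes exceeded 20 CPM in either library of this pair while staying under 0.5 CPM in its counterpart. In the remaining pairs of libraries without Dox this held for 21 to 130 genes. For the comparisons that use them, estimates without VTL-25 and without VTL-153 are given beside many of the results for named genes, but not all. They are not given for Bax, Mdm4 and Col1a2, nor for Cdkn2a between evolving and dependent tumours. Results without such estimates rest on the labels.

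The 7 genes differed in abundance when counts were divided by exon length. The median over the 14 libraries was 55.8 CPM per kilobase for Trp53inp1 and 52.96 for Trp53, followed by 20.8 for Ccng1, 19.3 for Mdm2 and 11.5 for Sesn1. Phlda3, at 2.02 CPM per kilobase, and Zmat3, at 0.917, were the least abundant. The ranges over libraries overlapped between each gene and its neighbour in this order, by the smallest margin where the lowest Sesn1 level of 7.30 CPM per kilobase met the highest Phlda3 level of 7.57. The 2 least abundant genes also varied most. The highest library exceeded the lowest 39.7-fold for Zmat3 and 14.9-fold for Phlda3, but 4.34-fold for Trp53inp1 and between 1.93-fold and 2.79-fold for Mdm2, Ccng1, Trp53 and Sesn1. No other annotated gene's exons overlap those of the 7 genes. Trp53 has a processed pseudogene on chromosome 17, which the table does not list, so reads shared with it cannot be assessed.

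**Figure D1:**
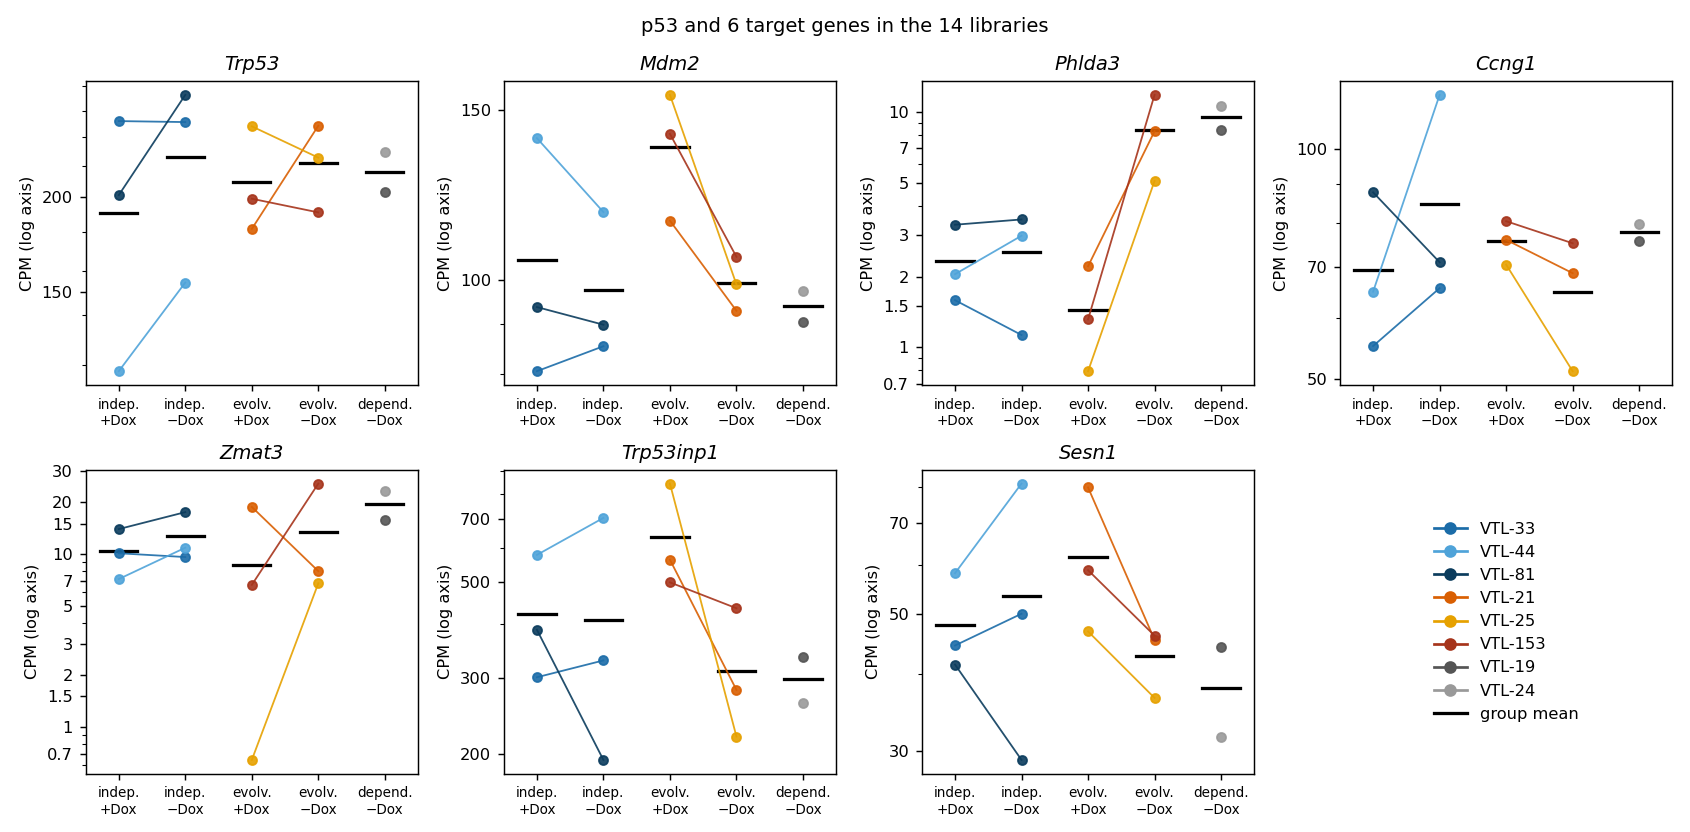
Level of each gene in CPM (log axis) in the 14 libraries, with a line joining the 2 libraries of a tumour and a bar at the mean of each group. Phlda3 lay between 0.793 and 2.21 CPM in the evolving tumours with Dox, against 5.09 to 11.8 CPM without Dox.

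Trp53 (ENSMUSG00000059552, mm10 chr11:69580359-69591873, + strand) had similar mean levels in all groups. In the independent tumours it was at 252, 118 and 201 CPM with Dox in VTL-33, VTL-44 and VTL-81, against 251, 154 and 273 CPM without Dox. Evolving tumours had it at 182, 248 and 199 CPM with Dox in VTL-21, VTL-25 and VTL-153, against 248, 225 and 191 CPM without Dox. The dependent tumours VTL-19 and VTL-24 had 203 and 229 CPM. VTL-44 was the tumour with the least Trp53, with and without Dox, and the 5 groups overlapped. The means ran from 190 ± 67.7 CPM (SD, n = 3) in the independent tumours with Dox to 226 ± 63.1 CPM (SD, n = 3) in the same tumours without Dox, and no neighbours in that order differed by more than their SD.

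Mdm2 (ENSMUSG00000020184, mm10 chr10:117688875-117710758, − strand), the ubiquitin ligase that inhibits p53, had its highest group mean in the evolving tumours with Dox. There it was at 115, 156 and 142 CPM in VTL-21, VTL-25 and VTL-153, against 92.9, 99.0 and 106 CPM without Dox. It was higher with Dox in all 3 evolving tumours, a direction that 17.3% of all genes tested shared. The independent tumours had 80.5, 140 and 93.8 CPM with Dox in VTL-33, VTL-44 and VTL-81, against 85.4, 118 and 89.9 CPM without Dox. VTL-44 was the highest of them in both conditions. The dependent tumours had 90.5 and 97.5 CPM, inside the range of the independent tumours.

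Phlda3 (ENSMUSG00000041801, mm10 chr1:135766119-135769136, + strand) encodes a small protein that competes with the kinase Akt for membrane lipids and so restrains it. In the evolving tumours with Dox it was at 2.21, 0.793 and 1.32 CPM in VTL-21, VTL-25 and VTL-153, from 45, 16 and 26 counts. Without Dox the same tumours had 8.27, 5.09 and 11.8 CPM, from 184, 127 and 236 counts. Phlda3 was thus lower with Dox in all 3 evolving tumours, a direction that 17.6% of all genes tested shared. The independent tumours VTL-33, VTL-44 and VTL-81 were low in both conditions, with 1.59, 2.05 and 3.32 CPM with Dox, against 1.13, 2.98 and 3.49 CPM without Dox. VTL-19 and VTL-24, the dependent tumours, had 8.41 and 10.6 CPM. In order of mean, the evolving tumours with Dox (1.44 ± 0.717 CPM, SD, n = 3), the independent tumours with Dox (2.32 ± 0.896 CPM, SD, n = 3) and the independent tumours without Dox (2.53 ± 1.24 CPM, SD, n = 3) overlapped with each other. The evolving tumours without Dox (8.39 ± 3.36 CPM, SD, n = 3) and the dependent tumours (9.49 ± 1.53 CPM, SD, n = 2) overlapped with each other too, and both lay above the other 3 groups. The share of all genes with this ordering of groups was not computed.

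Ccng1 (ENSMUSG00000020326, mm10 chr11:40748552-40755311, − strand) encodes cyclin G1, which recruits a phosphatase to Mdm2. It ranged from 51.2 CPM in evolving VTL-25 without Dox to 118 CPM in independent VTL-44 without Dox. The other 12 libraries lay between these. The highest group mean, 84.8 ± 28.6 CPM (SD, n = 3) in the independent tumours without Dox, and the lowest, 65.1 ± 12.5 CPM (SD, n = 3) in the evolving tumours without Dox, differed by less than the larger SD.

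Zmat3 (ENSMUSG00000027663, mm10 chr3:32334792-32366014, − strand) encodes an RNA-binding zinc finger protein that acts in tumour suppression by p53. In the evolving tumours with Dox it was at 18.7, 0.644 and 6.63 CPM in VTL-21, VTL-25 and VTL-153, from 381, 13 and 131 counts. Without Dox the same tumours had 7.95, 6.77 and 25.5 CPM, from 177, 169 and 511 counts. The level with Dox was thus above that without it in VTL-21 and below it in the other 2 tumours. The independent tumours had 10.1, 7.16 and 13.9 CPM with Dox in VTL-33, VTL-44 and VTL-81, against 9.60, 10.9 and 17.5 CPM without Dox. The dependent tumours had 15.8 and 23.0 CPM, which is within the range of the evolving tumours without Dox.

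Trp53inp1 (ENSMUSG00000028211, mm10 chr4:11156431-11174379, + strand) encodes a nuclear stress protein that promotes the pro-apoptotic activity of p53. In the evolving tumours with Dox it was at 563, 844 and 499 CPM in VTL-21, VTL-25 and VTL-153, against 282, 220 and 435 CPM without Dox. It was higher with Dox in all 3 evolving tumours, as were 17.3% of all genes tested, although VTL-153 with and without Dox differed little. The independent tumours had 301, 577 and 388 CPM with Dox in VTL-33, VTL-44 and VTL-81, against 330, 703 and 194 CPM without Dox. VTL-44 was again the highest of them. The dependent tumours had 335 and 263 CPM, within the range of the evolving tumours without Dox.

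Sesn1 (ENSMUSG00000038332, mm10 chr10:41809935-41908424, + strand) encodes a sestrin, which restrains growth signalling through mTORC1 and has antioxidant activity. In the evolving tumours with Dox it was at 79.9, 46.8 and 58.8 CPM in VTL-21, VTL-25 and VTL-153, against 45.4, 36.6 and 46.1 CPM without Dox. Each of these 3 tumours was higher with Dox, a direction that 17.3% of all genes tested shared. The independent tumours had 44.4, 58.1 and 41.4 CPM with Dox in VTL-33, VTL-44 and VTL-81, against 49.998, 81.1 and 29.1 CPM without Dox. The dependent tumours had 44.1 and 31.7 CPM.

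The evolving tumours were compared with and without Dox, which in this class went with a large fall of Lmo2. Loss of Lmo2, Dox itself and a change in the leukaemic cells present cannot be told apart in this comparison. Phlda3 fell with Dox, with a log2 fold change of −2.57 ± 0.46 (SE) and an adjusted p of 0.0466 (edgeR quasi-likelihood test with tumour as a block, Benjamini-Hochberg adjustment over all genes). It was lower in 3 of 3 tumours, to 0.267, 0.156 and 0.111 of its level without Dox in VTL-21, VTL-25 and VTL-153. It was the only one of the 7 genes that passed the threshold of 0.05, which 263 of 12360 genes tested (2.13%) passed, 127 of them (1.03%) in the downward direction. In bulk RNA, fewer cells that express a gene and less RNA per cell cannot be told apart. The call rests on every tumour: without VTL-21, VTL-25 or VTL-153 the log2 fold change was −2.94, −2.52 and −2.29 with an adjusted p of 0.0549, 0.170 and 0.145 by edgeR. It was also lost without the tumour block, at −2.54 and an adjusted p of 0.0951, and when an independent tumour was left out, where the adjusted p was 0.0943 with VTL-33 omitted, 0.0776 with VTL-44 omitted and 0.0847 with VTL-81 omitted.

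The other 6 genes did not pass in the evolving tumours. Mdm2 had a log2 fold change of 0.46 ± 0.13 (SE) and an adjusted p of 0.139, with 1.24, 1.57 and 1.34 times as much with Dox in VTL-21, VTL-25 and VTL-153. Trp53inp1 had a log2 fold change of 1.04 ± 0.38 (SE) and an adjusted p of 0.236, with ratios of 2.00, 3.84 and 1.15. Sesn1 had a log2 fold change of 0.51 ± 0.21 (SE) and an adjusted p of 0.297, with ratios of 1.76, 1.28 and 1.28. These 3 genes and Ccng1 (0.23 ± 0.22, SE, adjusted p = 0.686) were above their level without Dox in 3 of 3 tumours, and Phlda3 was below it. That makes 5 of 7 genes with one direction in all 3 tumours, a property shared by 34.9% of all genes tested, 17.3% upwards and 17.6% downwards. The values of Trp53 (−0.085 ± 0.17, SE, adjusted p = 0.865) and Zmat3 (−1.40 ± 0.89, SE, adjusted p = 0.515) differed in sign between tumours. Zmat3 depended on single tumours. Its log2 fold change was −2.63 with an adjusted p of 0.0458 without VTL-21, −0.35 without VTL-25 and −0.95 without VTL-153, by edgeR. With VTL-25 omitted, the log2 fold change was 0.37 for Mdm2, 0.60 for Trp53inp1, 0.59 for Sesn1, 0.12 for Ccng1 and −0.19 for Trp53. With VTL-153 omitted, it was 0.47 for Mdm2, 1.46 for Trp53inp1, 0.57 for Sesn1, 0.29 for Ccng1 and −0.17 for Trp53. None of these passed, and of these 5 genes Trp53inp1 moved most. DESeq2 put Mdm2 at an adjusted p of 0.0456 and Trp53inp1 at 0.0222, in a test that called 1314 genes.

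**Figure D2:**
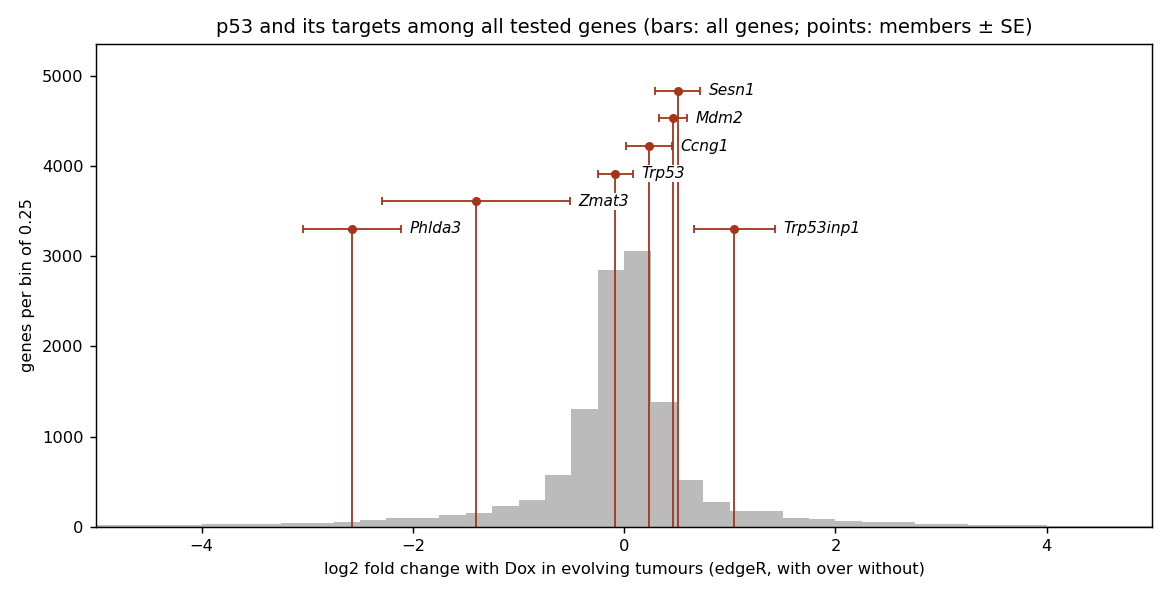
Log2 fold change with over without Dox in the evolving tumours: bars count all 12360 genes tested, in bins of 0.25, and points give the 7 genes with their SE, at heights that carry no value. Phlda3 lay at −2.57 and Trp53inp1 at 1.04, with Trp53 near 0.

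Among all genes tested, the median log2 fold change with Dox in the evolving tumours was −0.0022, and that of the 7 genes was 0.23. Phlda3 was far into the lower tail, with 396 genes (3.20%) below it. Trp53inp1 had 860 genes (6.96%) above it. Markers of other cell types were read in the same libraries. The myeloid markers summed to 173, 23.6 and 19.6 CPM with Dox in VTL-21, VTL-25 and VTL-153, against 13.8, 200 and 146 CPM without Dox. They were thus higher with Dox in VTL-21 and lower in the other 2 tumours, as was Zmat3, and their part in that result was not tested. The 4 listed stromal markers summed to 180 to 270 CPM with Dox, against 155 to 181 CPM without Dox, and 2 of the 4 had estimates above 0 and 2 below. Of these sums, Pdgfrb gave 68.5, 106 and 1.67 CPM with Dox in VTL-21, VTL-25 and VTL-153, against 50.9, 34.9 and 18.7 CPM without Dox. The collagen gene Col1a2 had 4, 21 and 318 counts with Dox in VTL-21, VTL-25 and VTL-153, against 0, 2 and 3 counts without Dox, and passed the test (adjusted p = 0.0247). Its partner Col1a1 had 0.702, 0.190 and 0.337 times its level without Dox in the same tumours, the opposite direction, and did not pass (adjusted p = 0.264). The cells were sorted for donor CD45, which stromal cells lack, but how many stromal cells remained after the sort was not measured here. The part of stromal RNA in the Phlda3 result was not tested.

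The independent tumours were also compared with and without Dox, but this does not ask the same of each tumour. Lmo2 was already at 9.28 and 27.2 CPM without Dox in VTL-44 and VTL-81, against 600 CPM in VTL-33. Only VTL-33 thus had a high Lmo2 level to lose. None of the 7 genes passed, and none kept one direction in all 3 tumours, which 17% of all genes did. edgeR called 0 of 12360 genes (0%), with 87 genes at an unadjusted p under 0.05, and DESeq2 and limma voom also called 0. The log2 fold changes of the 7 genes lay between −0.28 ± 0.74 (SE) for Zmat3 and 0.19 ± 0.37 (SE) for Trp53inp1, all at an adjusted p of 1. Phlda3 was at −0.048 ± 0.44 (SE), with ratios of 1.41, 0.687 and 0.950 with over without Dox in VTL-33, VTL-44 and VTL-81. VTL-33 is the independent tumour in which Lmo2 was as high as in the evolving tumours without Dox, and its Phlda3 level was 1.59 CPM with Dox, against 1.13 CPM without Dox. Trp53 (−0.27 ± 0.17, SE) and Ccng1 (−0.27 ± 0.22, SE) were in the lower part of the range, and Mdm2 (0.077 ± 0.13, SE) and Sesn1 (−0.049 ± 0.21, SE) near 0. VTL-81 had 2.00 times as much Trp53inp1 with Dox, and VTL-44 had 0.552 times as much Ccng1.

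**Figure D3:**
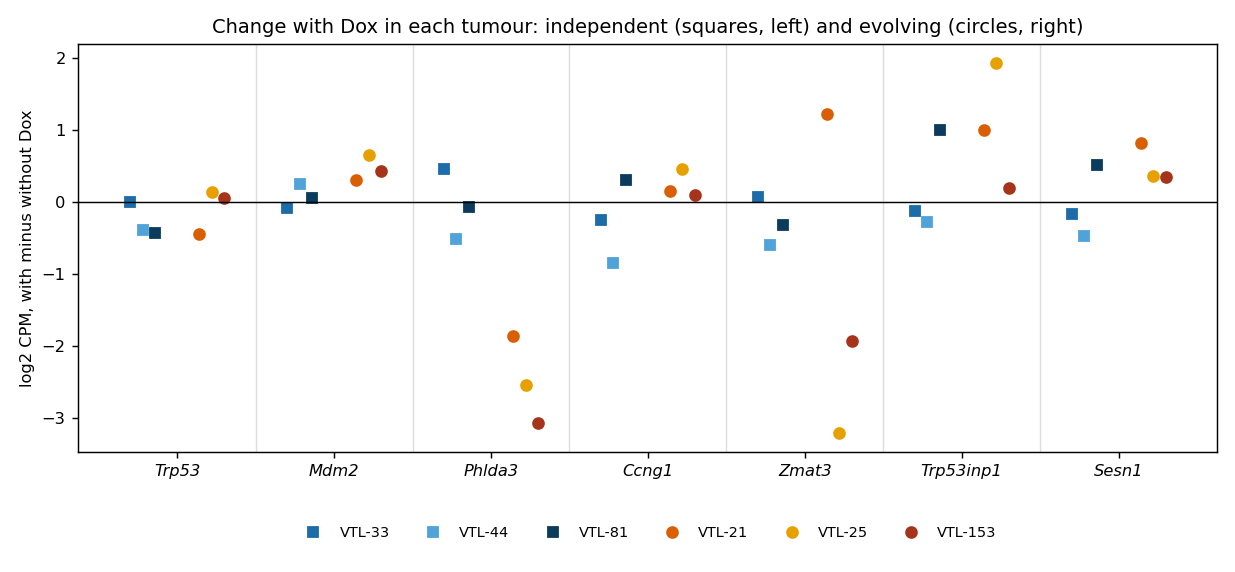
Log2 ratio of the level with Dox to that without Dox for each gene in the 3 independent and the 3 evolving tumours, 1 point per tumour. Phlda3 lay between −0.52 and 0.46 in the independent tumours and between −3.08 and −1.86 in the evolving tumours.

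The difference between the Dox responses was tested directly. The tumours also differed in how far Lmo2 itself fell with Dox. It fell to 0.441 and 0.311 of its level without Dox in independent VTL-44 and VTL-81. In independent VTL-33 it fell to 0.00220, and in the evolving tumours to 0.0107 or less, so the classes overlapped. The part of this in the differences below was not tested. For Phlda3 the response in the independent tumours exceeded that in the evolving tumours by 2.53 ± 0.63 on the log2 scale (SE), with an adjusted p of 0.229 by edgeR, so the difference did not pass. DESeq2 gave it an adjusted p of 0.0327, in a test that called 549 genes. With VTL-25 omitted the edgeR estimate was 2.46 (adjusted p = 0.416), and with VTL-153 omitted it was 2.23 (adjusted p = 0.367). The single-tumour changes of Phlda3 ran from −0.52 to 0.46 in the independent tumours, against −3.08 to −1.86 in the evolving tumours, without overlap. The changes of Mdm2 did not overlap either, at −0.086 to 0.25 in the independent tumours, against 0.31 to 0.65 in the evolving tumours. The estimate for Mdm2 was −0.39 ± 0.19 (SE) with an adjusted p of 0.598, or −0.30 with VTL-25 omitted and −0.40 with VTL-153 omitted. These were 2 of 7 genes, and the changes of the 2 classes did not overlap for 15.1% of all genes tested. edgeR called 15 of 12360 genes (0.121%) for this difference, none of them among the 7. For Trp53, Ccng1, Zmat3, Trp53inp1 and Sesn1 the adjusted p lay between 0.670 and 0.910.

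The tumour classes were then compared without Dox. Lmo2 was at 9.28 and 27.2 CPM there in independent VTL-44 and VTL-81. It was at 600 CPM in independent VTL-33 and at 120 to 708 CPM in the dependent and evolving tumours. Class and Lmo2 level are thus partly mixed where the independent tumours are compared, and their parts cannot be told apart. Phlda3 was at 1.13 to 3.49 CPM in the independent tumours, against 8.41 and 10.6 CPM in the dependent tumours, without overlap. The log2 fold change was −1.90 ± 0.56 (SE), with an adjusted p of 0.220 by edgeR, which called 12 of 12348 genes (0.0972%). Against the evolving tumours, at 5.09 to 11.8 CPM, the log2 fold change of the independent tumours was −1.72 ± 0.52 (SE), with an adjusted p of 0.179, and edgeR called 32 of 12348 genes (0.259%). This estimate was −1.98 (adjusted p = 0.328) with VTL-25 omitted and −1.40 (adjusted p = 0.400) with VTL-153 omitted. Neither comparison passed by edgeR. DESeq2 gave an adjusted p of 0.0355 against the dependent and of 0.0277 against the evolving tumours, where it called 791 and 1068 genes. Phlda3 was the only one of the 7 genes whose groups did not overlap in these comparisons. Groups did not overlap for 27.7% of all genes between the independent and the dependent tumours and for 23.5% between the independent and the evolving tumours.

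The remaining 6 genes showed no call between the classes without Dox. For the independent against the dependent tumours their log2 fold changes ranged from −0.62 ± 0.60 (SE) for Zmat3 to 0.49 ± 0.40 (SE) for Sesn1. For the independent against the evolving tumours they ranged from −0.085 ± 0.54 (SE) for Zmat3 to 0.39 ± 0.47 (SE) for Trp53inp1. The evolving and dependent tumours were compared with 0 of 12348 genes called (0%) by edgeR, with 419 at an unadjusted p under 0.05, against 64 called by DESeq2 and 0 by limma voom. There Phlda3 had a log2 fold change of −0.18 ± 0.56 (SE), or 0.070 with VTL-25 omitted and −0.51 with VTL-153 omitted. Ccng1 was the only one of the 7 without overlap, at 51.2 to 75.2 CPM in the evolving class, against 75.7 and 79.8 CPM in the dependent class, a property of 19.5% of all genes. Its log2 fold change was −0.26 ± 0.28 (SE), with an adjusted p of 1.00, and −0.12 with VTL-25 omitted and −0.38 with VTL-153 omitted. Stromal markers were at 257 to 630 CPM in the independent tumours, 155 to 181 CPM in the evolving tumours and 142 to 164 CPM in the dependent tumours. Of these sums, Pecam1 alone gave 118 to 167 CPM. Pdgfrb gave 116 to 377 CPM in the independent tumours, 18.7 to 50.9 CPM in the evolving tumours and 0 to 9.62 CPM in the dependent tumours. For the independent tumours, stromal estimates were above 0 for 3 of 4 genes against the dependent tumours (median 2.84). Against the evolving tumours they were above 0 for 4 of 4 (median 2.56), with none past the threshold in either comparison. Myeloid markers were at 64.5 to 1366 CPM in the independent tumours, 13.8 to 200 CPM in the evolving tumours and 28.3 to 85.2 CPM in the dependent tumours. Their estimates were above 0 for 8 of 8 genes in the independent tumours against the dependent (median 2.38) and against the evolving (median 2.24), with none past the threshold. The 6 listed erythroid markers were likewise above 0 in both (medians 1.52 and 0.96), with none past the threshold. The part of these markers in the Phlda3 values of the independent tumours was not tested.

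With Dox, only the independent and the evolving tumours could be compared. edgeR called 0 of 12093 genes (0%), with 573 at an unadjusted p under 0.05, against 94 called by DESeq2 and 1 by limma voom. None of the 7 genes had groups without overlap, which 9.64% of all genes had. Phlda3, at 1.59 to 3.32 CPM in the independent tumours and 0.793 to 2.21 CPM in the evolving tumours, had a log2 fold change of 0.67 ± 0.67 (SE), or 0.38 with VTL-25 omitted and 0.63 with VTL-153 omitted. The lowest estimates were those of Trp53inp1 (−0.59 ± 0.31, SE) and Mdm2 (−0.40 ± 0.26, SE), each at an adjusted p of 0.974 by edgeR. They were −0.34 and −0.30 with VTL-25 omitted, and −0.72 and −0.35 with VTL-153 omitted.

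Other genes of the p53 pathway were examined as 4 lists. They comprised 16 listed of 18 upstream regulators, 9 of 10 targets for cell cycle arrest, 12 of 14 for apoptosis, and 17 of 17 for repair, metabolism and stress. None of these genes passed in any of the 7 comparisons by edgeR. For Dox in the evolving tumours, 6 of 16 regulators, 5 of 9 arrest genes, 6 of 12 apoptosis genes and 7 of 17 repair genes kept one direction in all 3 tumours, set against 34.9% of all genes. The median log2 fold changes of the lists were 0.014, 0.40, −0.15 and 0.080, against −0.0022 over all genes. For Dox in the independent tumours the medians were 0.035, −0.035, −0.099 and −0.13, against 0.0064 over all genes. Of the 9 arrest genes, 6 had estimates above 0 in the evolving tumours and 3 below, between −1.99 and 3.42. Btg2, Plk2, Plk3 and Tob1 were above their level without Dox in all 3 tumours and Cdkn1a below it, none of them past the threshold.

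Cdkn1a, which encodes the p21 inhibitor of cyclin-dependent kinases, was low in all libraries. In VTL-21, VTL-25 and VTL-153, all evolving, it had 1.72, 0.149 and 0.303 CPM with Dox, against 3.91, 1.48 and 1.05 CPM without Dox, from 35, 3 and 6 counts with Dox. Its level was lower with Dox in 3 of 3 tumours, as was that of Phlda3, with a log2 fold change of −1.99 ± 0.69 (SE) and an adjusted p of 0.212. The estimate was −1.45 with VTL-25 omitted and −2.10 with VTL-153 omitted. In the independent tumours VTL-33, VTL-44 and VTL-81 it had 0.661, 3.60 and 1.55 CPM with Dox, against 1.43, 3.97 and 0.819 CPM without Dox. The 2 conditions overlapped there. Bax, which permeabilises mitochondria in apoptosis, was at 39.7 to 106 CPM over the 14 libraries and had a log2 fold change with Dox of −0.16 ± 0.21 (SE) in the independent and 0.00076 ± 0.21 (SE) in the evolving tumours.

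Sesn2, the stress-induced relative of Sesn1, had 6.17, 13.3 and 10.8 CPM with Dox in the independent tumours VTL-33, VTL-44 and VTL-81, against 7.08, 27.7 and 27.9 CPM without Dox. It was lower with Dox in all 3, with a log2 fold change of −0.88 ± 0.30 (SE) and an adjusted p of 1 by edgeR. Mdm4, the relative of Mdm2 that blocks the activation domain of p53, was at 270.1 to 490 CPM in the 14 libraries, with a log2 fold change of 0.028 ± 0.19 (SE) with Dox in the evolving tumours. The lowest adjusted p of the lists in that comparison was 0.0782, that of Ddb2, which recognises ultraviolet damage in DNA (0.58 ± 0.13, SE). It was 0.57 (adjusted p = 0.238) with VTL-25 omitted and 0.63 (adjusted p = 0.152) with VTL-153 omitted. Ddb2 is outside the rule for named genes and was chosen after its values were seen.

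Cdkn2a, one of whose products, Arf, inhibits Mdm2, had a higher level in the 3 evolving tumours than in the other 5 without Dox. Without Dox it was at 3.21, 19.0 and 4.53 CPM in the independent tumours VTL-33, VTL-44 and VTL-81, against 117, 182 and 190 CPM in the evolving tumours VTL-21, VTL-25 and VTL-153. The dependent tumours had 5.41 and 1.26 CPM. The log2 fold change of the independent against the evolving tumours was −4.20 ± 0.83 (SE), with an adjusted p of 0.0911, which did not pass, and −4.11 with VTL-25 omitted and −4.08 with VTL-153 omitted. For the evolving against the dependent tumours it was 5.61 ± 1.078 (SE), with an adjusted p of 0.814. With Dox, evolving VTL-153 was at 4.50 CPM, while VTL-21 and VTL-25 were at 110 and 279 CPM. The counts do not tell the products of the gene apart.

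**Figure D4:**
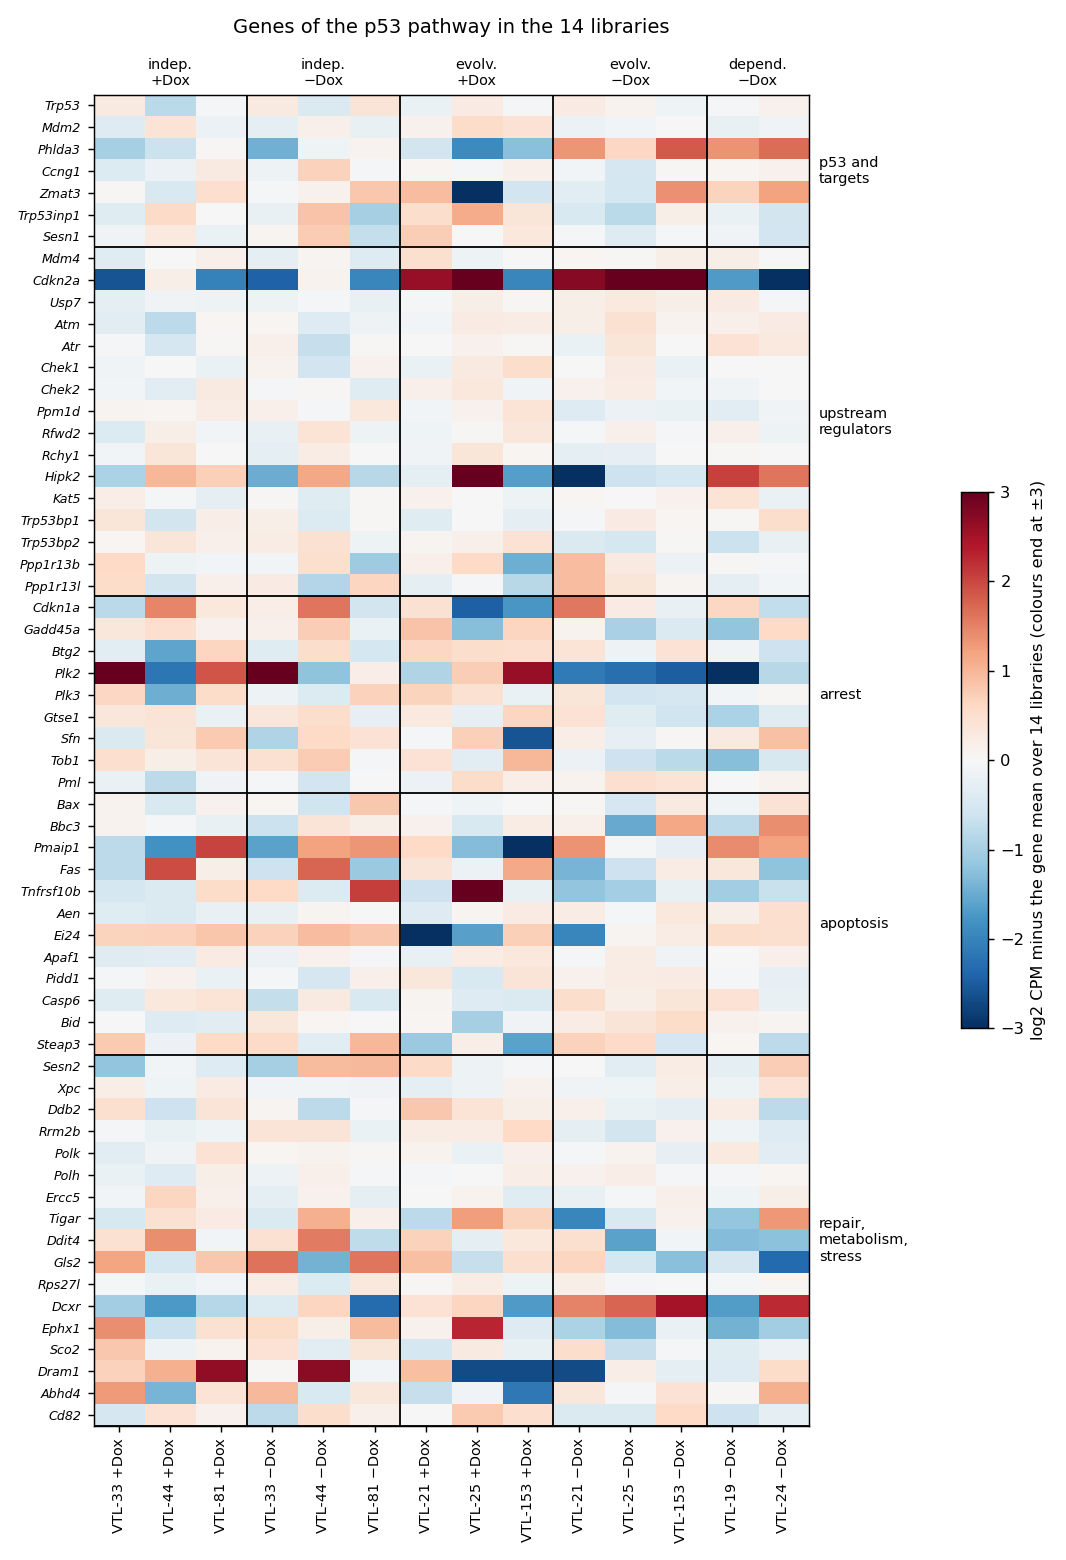
Log2 CPM of each gene minus its mean over the 14 libraries, for the 7 genes and the 4 other lists, with colours that end at ±3. Phlda3 had its 5 highest values in the evolving and dependent tumours without Dox, and Cdkn2a had its 5 highest values in evolving libraries.

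The 7 genes did not vary as a block. Over the 14 libraries, 10 of the 21 pairs had a positive Pearson correlation of log2 CPM, with a median of −0.10. These are descriptions, because libraries share tumours and sequencing depth. The closest pairs were Mdm2 with Trp53inp1 (r = 0.80, n = 14) and Trp53inp1 with Sesn1 (r = 0.77, n = 14). Phlda3 was closest to Zmat3 (r = 0.63, n = 14) and had negative values with Mdm2 (r = −0.42), Trp53inp1 (r = −0.48) and Sesn1 (r = −0.39). Trp53 had no positive correlation above 0.0044 with any of its targets, and its lowest was with Sesn1 (r = −0.63, n = 14). Among 9868 genes searched, the profiles most like the mean of the 6 targets were those of D5Ertd579e (r = 0.88), Fam214a (r = 0.87), Edaradd (r = 0.87), Znrf1 (r = 0.86) and Rgs14 (r = 0.86), each over 14 libraries. The profiles most like that of Trp53 were those of Mrpl15 (r = 0.95), a mitochondrial ribosomal protein, Rnmtl1 (r = 0.94) and Gtf2h3 (r = 0.94), a subunit of the general transcription factor TFIIH.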

How the data were processed

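The authors deposited raw counts of reads per gene, 1 column per library. Alignment was to mm10 with STAR 2.5.2b and counting with featureCounts, per the submitters' processing notes. Annotation, strandedness and filtering are not given in the sources used here. The table held 42 other columns of per-sample values, which were not used. Per the labels' protocols, libraries were prepared with NEBNext Ultra II from RNA whose integrity number exceeded 8. Library totals were 18214415 to 24048281.

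The test was that of edgeR 4.0.16, run in R 4.3.3 (TMM factors, default filter with a minimum count of 10, robust quasi-likelihood fit, Benjamini-Hochberg adjustment over all genes, threshold 0.05). Where no tool is named, an adjusted p is edgeR's. Dox was tested in 12 libraries of 6 tumours with tumour as a block, and classes in the 8 libraries without or the 6 with Dox. Log2 CPM used a prior count of 2. The tumour number in the labels was used to pair libraries, as the name of one leukaemia. For VTL-25 the receptor segments go against this, so its pairing is uncertain. Across genes, paired libraries' deviations from their group means correlated at 0.716, 0.645 and 0.563 in VTL-33, VTL-44 and VTL-81, and at 0.151, 0.0166 and 0.188 in VTL-21, VTL-25 and VTL-153. The labels do not say whether recipients were separate mice, so p-values measure the spread between these samples.

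Exon lengths and positions came from GENCODE M21 (mm10), where 12379 of 12421 identifiers were found. The tests were also run on simulated counts, in which libraries of a tumour shared no effect. That run does not check the tumour block, and no result here rests on it. Alternatives used DESeq2 1.42.0, limma 3.58.1 (voom), RLE factors, other filters, a fit that was not robust, no block and tumours left out. The genes, the lists and the rule for named genes (the 7 genes, Lmo2, list genes past the threshold, Cdkn1a, Bax, Sesn2, Mdm4, Cdkn2a, and the profiles most like the genes at a mean log2 CPM of at least 2) were chosen with earlier results of these data known.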

Additional observations from a re-analysis of the deposited data

How the results depend on the processing

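Under the alternatives, 58 gene counts stayed within 1.5 times the reported count and 38 did not. DESeq2 called 1314 genes for Dox in the evolving tumours, 549 for the difference of Dox responses, 64 for evolving against dependent, 791 for independent against dependent and 1068 for independent against evolving tumours without Dox, and 94 with Dox. limma voom called 426 for Dox in the evolving tumours, 69 for the difference, 0 for independent against dependent and 7 for independent against evolving tumours without Dox, and 1 with Dox. Without the replicate block, which pairs the libraries of a tumour, edgeR called 73 genes for Dox in the evolving tumours and 1 for the difference. Without VTL-44 and VTL-81 it called 17 and 0. With 1 tumour left out at a time it called 49 to 347 for Dox in the evolving tumours, 0 to 58 for the difference, 0 to 1 for evolving against dependent, 2 to 73 for independent against dependent and 3 to 144 for independent against evolving tumours without Dox, and 0 to 4 with Dox. Where 1 dependent tumour remained, it was assumed to vary like the others. The cause of these shifts was not tested, beyond the smaller number of samples.

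The fall of Phlda3 in the evolving tumours kept its direction in all 14 alternatives, at −2.94 to −2.29, and passed the threshold in 6 of them, with an adjusted p of 0.000111 (DESeq2) to 0.170. Some of the other log2 fold changes changed sign under an alternative, and not only those near 0. Among them were Trp53inp1 at 0.45 for independent against dependent tumours. For independent against evolving tumours without Dox, Trp53inp1 at 0.39 and Sesn1 at 0.32 did so too. By limma voom, independent against evolving tumours without Dox stood at −0.0055 for Trp53 and 0.20 for Zmat3. Without VTL-44 and VTL-81, Dox in the independent tumours stood at 0.0046 for Trp53, −0.086 for Mdm2, 0.49 for Phlda3, 0.073 for Zmat3 and −0.13 for Trp53inp1, and the difference of responses at 0.089 for Trp53. With 1 tumour left out, Dox in the independent tumours gave −0.55 to 0.026 for Ccng1, −0.013 to 0.15 for Mdm2, −0.31 to 0.20 for Phlda3, −0.33 to 0.17 for Sesn1 and −0.21 to 0.43 for Trp53inp1, and Dox in the evolving tumours −0.19 to 0.076 for Trp53. Evolving against dependent tumours gave −0.51 to 0.070 for Phlda3, −0.049 to 0.43 for Sesn1, −0.069 to 0.13 for Trp53 and −0.26 to 0.25 for Trp53inp1. Independent against dependent tumours gave −0.18 to 0.28 for Ccng1, −0.10 to 0.14 for Mdm2, −0.091 to 0.28 for Trp53 and −0.19 to 0.79 for Trp53inp1. Independent against evolving tumours gave −0.18 to 0.066 for Mdm2, −0.11 to 0.62 for Sesn1, −0.13 to 0.24 for Trp53, −0.25 to 0.73 for Trp53inp1 and −0.40 to 0.77 for Zmat3 without Dox, and −0.41 to 0.13 for Trp53 and −0.30 to 1.49 for Zmat3 with Dox. Values without VTL-25 and VTL-153 for Cdkn1a, Ddb2 and Cdkn2a were chosen after seeing the data and kept their direction. At a minimum count of 50, Phlda3 could not be tested between classes with Dox. Phlda3 and Zmat3 rest on as few as 16 and 13 counts in a library, which limits their precision.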
